A study of Mus musculus with 4 samples.

Results

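The genes described here are 773 genes of mouse chromosome 8, of 55335 rows in the deposited count table, and the measurement of interest is their level in one wild-type library, WT replicate 1, against the other 3 libraries of the study. The table held 2528 rows on chromosome 8, of which 786 had at least 100 counts summed over the 4 libraries. The rule left out 14 genes by name, 13 of which had reached 100 counts, and so gave 773 members. These members were selected on measured values: the chromosome was chosen because its genes were high in WT replicate 1, so the size of that shift is a description without a test. At the count limit, D130040H23Rik with 100 counts and Nr2c2ap with 101 counts were the last members inside, at log2 ratios of -0.16 and 0.45, and Exoc3l and Ppp1r3b with 99 counts each were outside, at 2.15 and 2.43.

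The study sequenced poly(A) RNA of spermatogonial stem cells, the germ cells of the testis that both renew themselves and feed sperm production. The 2 groups were WT and Tex11PM/Y cells, with 2 libraries each. All 4 were labelled as derived from testis of C57/BL6*DBA2 mice at postnatal day 10, from cells kept in culture with regular passages and collected on a cell sorter. Tex11 is an X-linked gene needed for male meiosis, and the labels do not spell out the PM allele. Both Tex11PM/Y columns carry one name, so they are called library A and library B here. Whether the 2 libraries of each genotype came from different animals or cultures is not stated, so a p-value measures only the spread between these libraries, which may be technical.

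Autosomes are present in pairs, and the amount of RNA made from a gene tends to follow its number of copies, with buffering at some genes. When a cell line gains a copy of a chromosome, the genes along it are usually raised together by a modest and similar amount, while genes under strong regulation can leave that common level. Cultured mouse stem cell lines are known for gains of chromosome 8. DNA copy number was not measured in these data, and its part in the values below was not tested.

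A shift shared by a chromosome has no single sequence, so the sequences shown are the promoters of members that left the common level in opposite directions at 2 small gene clusters. Mt1 and Mt2, neighbouring metallothionein genes whose small cysteine-rich proteins bind zinc and copper, were above it, and Fendrr, a long noncoding RNA gene beside the forkhead gene Foxf1, was below it. Each run is the 250 bases before the gene's start in RefSeq, build GRCm38.p6 (mm10): chr8:94178839-94179088 on the plus strand for Mt1, chr8:94172368-94172617 on the plus strand for Mt2 and chr8:121083111-121083360 on the minus strand for Fendrr. Capitals in the metallothionein promoters mark TGCNCNC on either strand, the core of the metal response element, and capitals in the Fendrr promoter mark CG.
Mt1: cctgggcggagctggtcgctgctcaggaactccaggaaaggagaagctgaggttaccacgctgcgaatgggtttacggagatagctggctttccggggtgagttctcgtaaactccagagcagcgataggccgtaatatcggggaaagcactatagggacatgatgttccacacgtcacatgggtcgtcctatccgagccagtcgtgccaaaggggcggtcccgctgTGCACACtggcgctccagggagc
Mt2: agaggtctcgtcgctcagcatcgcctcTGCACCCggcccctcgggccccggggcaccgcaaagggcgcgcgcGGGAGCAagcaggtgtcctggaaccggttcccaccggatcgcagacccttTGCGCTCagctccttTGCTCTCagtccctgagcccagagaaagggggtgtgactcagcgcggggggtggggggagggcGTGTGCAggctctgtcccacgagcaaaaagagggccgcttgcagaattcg
Fendrr: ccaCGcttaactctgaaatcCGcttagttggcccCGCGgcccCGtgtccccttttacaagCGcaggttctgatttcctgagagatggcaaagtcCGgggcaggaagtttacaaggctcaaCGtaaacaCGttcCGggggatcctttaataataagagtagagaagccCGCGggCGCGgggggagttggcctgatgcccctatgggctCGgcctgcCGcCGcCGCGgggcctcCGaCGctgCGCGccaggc
The Mt2 window held 5 matches, with 0 pairs of them overlapping, and 0.344% of 32851 promoters of the same length held as many. The Mt1 window held 1, and 44.4% of promoters held at least 1. GENCODE lists 2 further Mt1 transcript starts 122 and 152 bases downstream of the RefSeq start, so the bases before those starts lie outside the window. For Mt2 the GENCODE starts are 46 and 242 bases downstream, and its RefSeq start matched no GENCODE transcript, so the matches are those of the window before the RefSeq start. Fendrr had 23 CG pairs, a number reached by 13.3% of promoters, where the median promoter had 6. A match is a description of the letters and not a bound site.

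The libraries held between 19047148 and 19804951 counts assigned to genes, so 3 counts correspond to 0.149 to 0.168 CPM, the count scaled to the size of its library, and no pair of libraries was close enough to be one library deposited again. All 12 germ cell markers were detected in every library. They took 0.326% of counts in WT replicate 1, 0.386% in WT replicate 2, 0.421% in library A and 0.415% in library B. Their mean log2 CPM was 7.72, 7.78, 7.64 and 7.89 in that order. Fibroblast markers took 1.81% of counts in WT replicate 1, 0.562% in WT replicate 2, 0.0611% in library A and 0.69% in library B, and macrophage markers took 0.0723%, 0.0582%, 0.0029% and 0.136%. The 8 Sertoli cell markers took 0.00182% to 0.0032% and the 6 endothelial markers 0.00196% to 0.00371%, with none at 0, and 1 of 20 fibroblast markers was at 0 in library A. WT replicate 1 was therefore the library with the most fibroblast marker RNA and library A the one with the least, and in these bulk samples fewer cells of a type and less RNA per cell cannot be told apart. None of these markers lies on chromosome 8, and their part in the shift was not tested.

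In WT replicate 1 the members stood above the mean of the other 3 libraries, with a median log2 ratio of 0.43, which is 1.35-fold. The ratio is a difference of log2 CPM after TMM scaling of the libraries with a prior count of 2. The quartiles of the members were 0.03 and 0.88, and 590 of 773 members (76.3%) lay above 0. For the 13626 genes of the other autosomes and X with at least 100 counts, the median was 0.00, with 49.7% above 0, and the members' median exceeded theirs by 0.44. For reference, a change from 2 to 3 copies with proportional RNA would be a log2 ratio of 0.58.

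WT replicate 1 was the highest of the 4 libraries in 468 members (60.5%), where the share over all 14412 autosome and X genes was 36.1%. On the deposited TPM scale, log2(TPM + 1), it was the highest in 292 members (37.8%), against 20.5% of genes on the other chromosomes on that scale. By CPM it was the lowest in 82 members (10.6%), where the share over all genes was 33.4%. Both counts are part of what chose the chromosome and are given as descriptions. The spread between single genes was wide: the interquartile range of the ratio was 0.85 for members and 1.01 for the other chromosomes, so the shift was smaller than the scatter of single genes and shows as a displacement of the whole distribution.

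**Figure D1:**
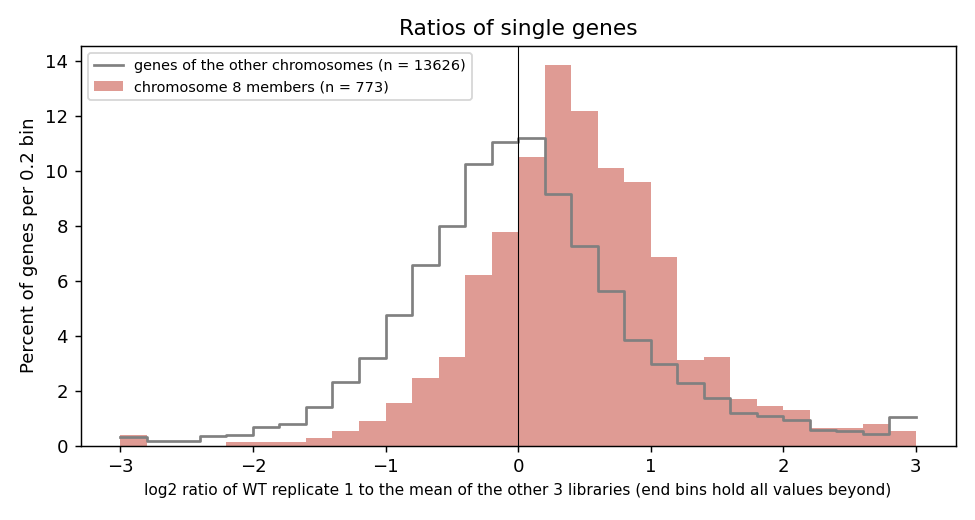
Percent of genes in bins of 0.2 of the log2 ratio of WT replicate 1 to the mean of the other 3 libraries, for the 773 members (filled) and 13626 genes of the other chromosomes (line); the end bins hold all values beyond them. The members' distribution is displaced to the right as a whole, with its median at 0.43. It is somewhat narrower, with an interquartile range of 0.85 against 1.01 for the other chromosomes.

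The shift belonged to WT replicate 1 in every pairing. Its members' median was 0.43 against WT replicate 2, 0.44 against library A and 0.42 against library B. Among the other 3 libraries the median was -0.02 for WT replicate 2 against library A, -0.02 for WT replicate 2 against library B and -0.03 for library A against library B. The 3 comparisons with WT replicate 1 share that library, and the spread of their medians was 0.008 log2 (SD, n = 3). Members took 6.17% of all counts in WT replicate 1 (95% Wilson interval 6.16% to 6.18%, counting error only), against 4.77% in WT replicate 2, 4.78% in library A and 4.91% in library B. Without the 5 members with the highest mean CPM the shares were 5.39%, 4.34%, 4.41% and 4.46%, so the higher share did not rest on those 5 genes.

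In WT replicate 1 the medians of the 19 other chromosomes ran from -0.27 on chromosome 12 to 0.14 on chromosome 19. WT replicate 1 was the highest library in 19.7% of genes on chromosome 12, the lowest such share, and in 39.6% on chromosome 6, the highest. One other chromosome stood as far out, in another library: the 539 genes of chromosome 12 had a median of 0.57 in WT replicate 2.

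**Figure D2:**
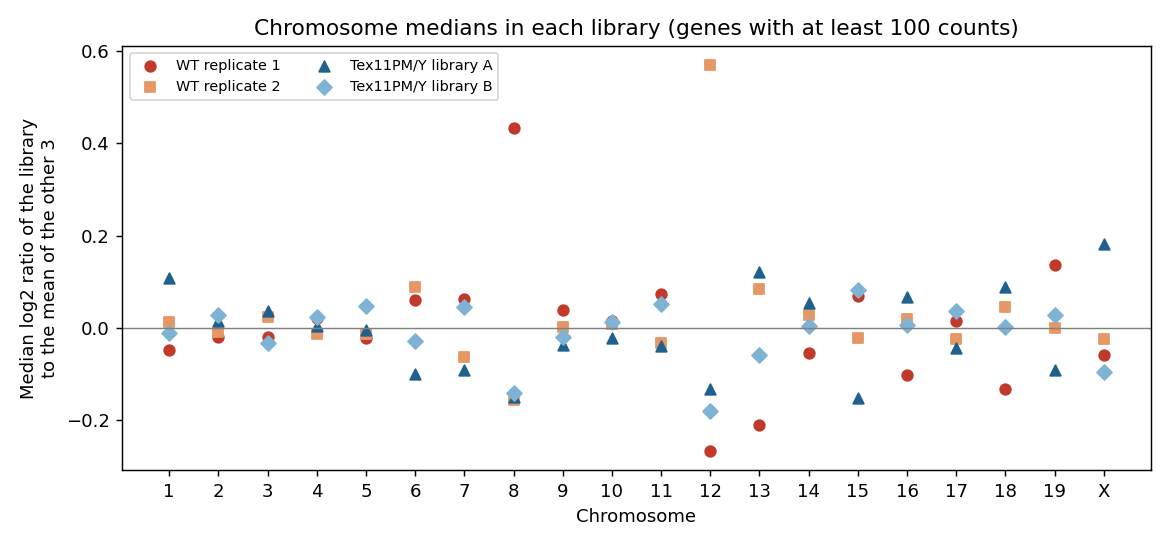
Median log2 ratio of each library to the mean of the other 3, by chromosome, over genes with at least 100 counts; each symbol is 1 library. Chromosome 8 stands at 0.43 in WT replicate 1, and chromosome 12 at 0.57 in WT replicate 2.

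The shift ran along the whole chromosome. Members started from position 3150922 and ended at position 129282844 (mm10), and in 12 of 12 windows of 10 Mb with at least 20 members the median was above 0. The window medians ran from 0.19 between 40 and 50 Mb to 0.73 between 90 and 100 Mb. The gene-dense window from 70 to 80 Mb, with 119 members, had a median of 0.63 with 81.5% of members above 0. On the other chromosomes 91 of 211 such windows had a median above 0, 22 reached 0.19, and the highest was 0.39. Adjacent members resembled each other little in how far they stood from the common level: the Spearman correlation over 772 neighbouring pairs was 0.14 and the Pearson correlation 0.11, across genes of the same 4 libraries.

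**Figure D3:**
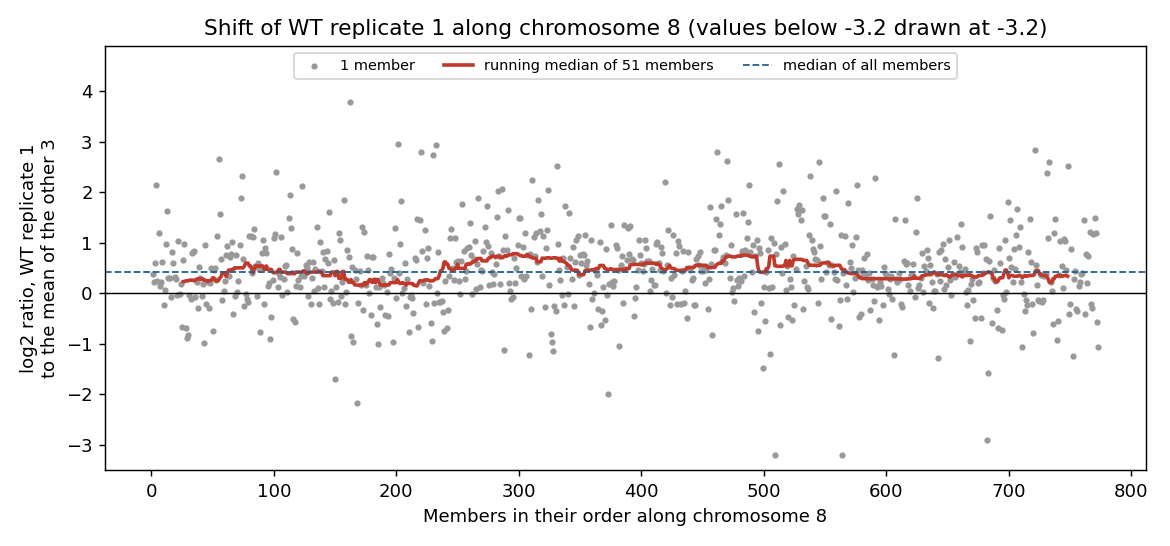
Log2 ratio of WT replicate 1 to the mean of the other 3 libraries for each of 773 members in their order along chromosome 8, with the running median of 51 members and the median of all members; values below -3.2 are drawn at -3.2. The running median stays above 0 along the whole chromosome.

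The ratio varied with abundance and gene length, much as it did elsewhere in the genome. With members divided into 4 groups by mean CPM, from the lowest to the highest, the members' medians were 0.44, 0.55, 0.46 and 0.35, and their excess over genes of the other chromosomes in the same range was 0.47, 0.43, 0.47 and 0.44. The interquartile range narrowed from 1.35 in the lowest group to 0.53 in the highest, so the most deeply counted genes had the narrowest spread. In 4 groups by exon length, from the shortest, the medians were 0.62, 0.45, 0.36 and 0.31, while genes elsewhere had 0.21, 0.05, -0.02 and -0.21. The excess in those groups was 0.41, 0.41, 0.37 and 0.53. The same order by length was thus present among the pooled genes of the other chromosomes.

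The 707 protein-coding members had a median of 0.45 and the 66 members of other gene types, such as long noncoding RNAs and pseudogenes, a median of -0.12. Genes elsewhere had medians of 0.02 and -0.43 in those classes, so the excess was 0.43 for coding genes and 0.32 for the others. Members on the plus and the minus strand had medians of 0.44 and 0.41. In 592 members the other 3 libraries lay within 1 log2 of each other, and these steady members had a median of 0.44, with WT replicate 1 highest in 66.6%. The 9839 genes elsewhere that were steady by the same limit had a median of -0.02, with WT replicate 1 highest in 34.98%.

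Members were also divided by their ratio of library A to WT replicate 2, and the shift was read from the remaining pair, WT replicate 1 against library B. Among the 240 members lower in library A the median shift was 0.60, among the 275 in the middle it was 0.40, and among the 258 higher in library A it was 0.34. Genes elsewhere had medians of 0.24, -0.03 and -0.18 in the same classes. The members' excess over them was 0.36, 0.44 and 0.52.

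Of the 773 members, 437 (56.5%) lay within 0.5 log2 of the common shift. Over all 14412 genes, 50.4% lay as near to the median of their own chromosome. Departures of more than 1 log2, or 2-fold, above it numbered 78 (10.1%), and the share over all genes around the median of their own chromosome was 12.6%. Departures below it numbered 52 (6.73%), where that share was 9.34%. Both shares of members were below those over all genes. Library A was the lowest of the 4 libraries in 54 of the 78 members above (69.2%), against 312 of all 773 members (40.4%). A low value in library A itself raises the ratio, so part of this difference follows from how the ratio is defined. Among the 592 steady members, 38 departed above and 25 below. Of 772 pairs of neighbouring members, both departed above in 15 and both below in 7. These counts of departing steady genes and departing pairs were not made on the other chromosomes, so whether they are unusual was not tested.

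Members were then read by function, in 11 lists of chromosome 8 genes that hold 233 of the members. The lists overlap, with 4 members in more than 1 list. Among these, Vegfc is in both the mesenchyme and the vascular list, and Msr1 in both the mesenchyme and the macrophage list. The lists were drawn up with earlier results of these data known, and a list is described by its counts and its median, beside 0.43 for all members. CPM values below are in the order WT replicate 1, WT replicate 2, library A and library B. Some examples of a list are among its members with the highest mean CPM, and others were chosen after their values were seen.

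**Figure D4:**
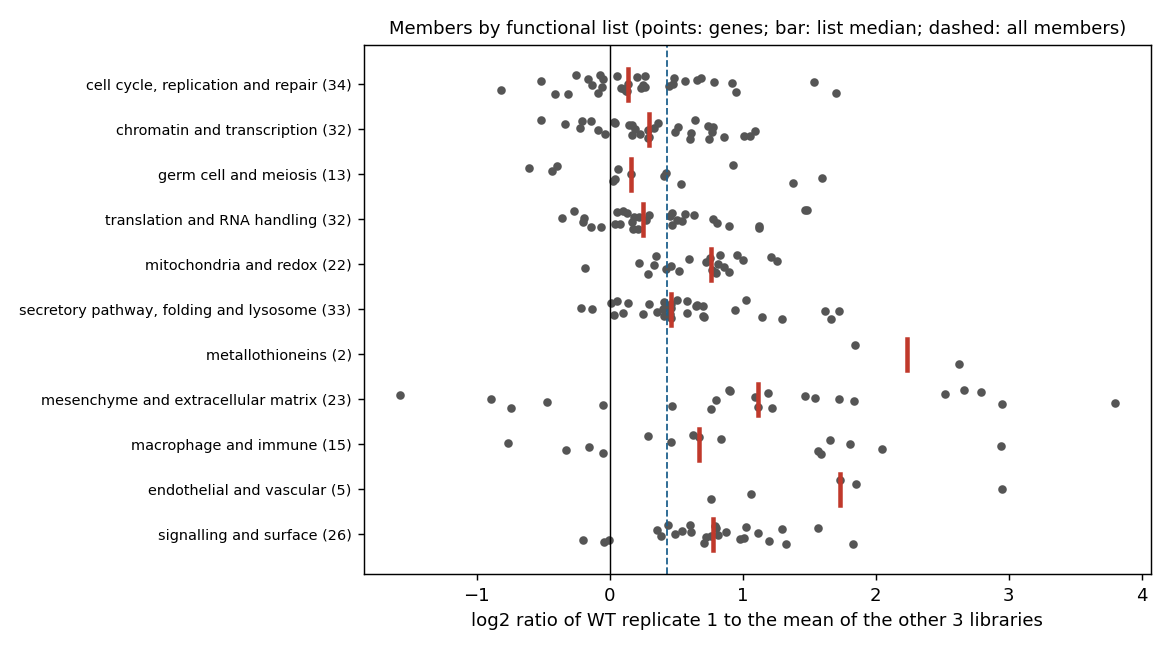
Log2 ratio of WT replicate 1 to the mean of the other 3 libraries for the members of each functional list (points), with the list median (bar), the median of all members (dashed line) and the number of members in brackets. Cell cycle and germ cell lists have medians of 0.13 and 0.16, and the vascular, mesenchyme and metallothionein lists have medians above 1.

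Genes of cell cycle, replication and repair lay mostly below the common shift. Of 34 members, 23 were above 0, WT replicate 1 was highest in 18, and the median was 0.13. Rfwd3, a ubiquitin ligase of DNA repair, measured 334, 310, 424 and 328 CPM, and Hmgb2, a chromatin protein of dividing and germ cells, 192, 221, 238 and 228 CPM. Neither was highest in WT replicate 1, and Hmgb2 was lowest there. Cdt1, which licenses replication origins, was close to the common level at 150, 105, 117 and 102 CPM, a ratio of 0.48, while Rbl2, a pocket protein of the retinoblastoma family, departed above at 12.8, 4.80, 3.17 and 3.83 CPM.

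The 32 members for chromatin and transcription had a median of 0.29, with none departing by more than 1 log2. Smarca5, a chromatin remodelling ATPase, was lowest in WT replicate 1 at 318, 480, 585 and 337 CPM. Gatad2a, a subunit of the NuRD complex, was highest there at 542, 344, 358 and 337 CPM. Sin3b, a corepressor scaffold, tracked the common shift at 286, 223, 229 and 214 CPM. The list therefore held genes on both sides within a narrow range, from -0.52 to 1.09.

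Germ cell and meiosis genes numbered 13 members of 21 listed, most of the remainder having under 100 counts, and their median was 0.16. Syce2, a component of the synaptonemal complex that joins meiotic chromosomes, measured 116, 68.6, 44.5 and 74.2 CPM and was highest in WT replicate 1. Nek1, a kinase of cilia and DNA repair, measured 57.3, 71.4, 112 and 53.4 CPM, with library A highest. Gas8, an axonemal protein of cilia and sperm tails, was lowest in WT replicate 1 at 41.1, 51.1, 62.0 and 77.2 CPM. WT replicate 1 was highest in 6 of the 13.

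Translation and RNA handling had 32 members with a median of 0.25. Rpl13, a protein of the large ribosomal subunit and the member with the highest mean CPM of all, departed above at 3050, 1256, 821 and 1309 CPM, a ratio of 1.47. The 80 ribosomal protein genes on other chromosomes had a median ratio of 0.96, ranging from -0.93 to 2.29, and 73 of them were highest in WT replicate 1, so a high level of ribosomal protein genes in that library was not limited to chromosome 8. Processed pseudogenes share sequence with such genes, which makes their counts uncertain. Cnot1, the scaffold of the CCR4-NOT deadenylase, measured 731, 633, 871 and 578 CPM and did not share the shift, at 0.10, while Utp4, of ribosome assembly, did at 397, 305, 260 and 297 CPM.

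The mitochondria and redox list had 22 members with a median of 0.76, and WT replicate 1 was highest in 20 and lowest in 0. Cox4i1, a subunit of cytochrome c oxidase, measured 971, 567, 355 and 622 CPM. Gsr, which regenerates reduced glutathione, measured 565, 339, 271 and 351 CPM, and Ciapin1, of iron-sulfur cluster assembly, 333, 281, 222 and 285 CPM. None of the 22 departed by more than 1 log2. Gpt2, an alanine transaminase, was its 1 member below 0, at 37.6, 31.8, 77.2 and 31.7 CPM.

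Genes of the secretory pathway, protein folding and the lysosome had the list median nearest to the common shift, with 33 members, a median of 0.46, WT replicate 1 highest in 26 and lowest in 0. Lamp1, the main lysosomal membrane glycoprotein, measured 1353, 936, 932 and 990 CPM. Its other 3 libraries lay within 0.09 log2 of each other and WT replicate 1 was 0.51 above their mean. Glg1, a Golgi glycoprotein, measured 606, 382, 445 and 390 CPM, and Calr, the calcium-binding chaperone of the endoplasmic reticulum, 1048, 551, 412 and 601 CPM.

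Signalling and surface genes had 26 members with a median of 0.78, with WT replicate 1 highest in 21 and lowest in 0. Slc7a5, a large neutral amino acid transporter, measured 809, 510, 496 and 600 CPM, and Irs2, an adaptor of the insulin receptor, 293, 172, 100 and 280 CPM. Fat1, a giant cadherin, was highest in library A at 721, 447, 745 and 456 CPM. Rasa3, a Ras GTPase-activating protein, departed above at 252, 74.7, 80.9 and 102 CPM, with the other 3 libraries near each other.

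The mesenchyme and extracellular matrix list had 23 members, a median of 1.12 and the widest range of the lists, from -1.58 to 3.80, with 9 members departing above and 3 below. Gas6, a ligand of the TAM receptor kinases, measured 676, 165, 29.7 and 247 CPM. Mmp2, a gelatinase, measured 298, 63.9, 12.6 and 97.7 CPM, and Pdgfrl, a PDGF receptor-like gene, 32.2, 5.50, 0.301 and 5.42 CPM. In these genes WT replicate 1 was highest and library A lowest by a wide margin, the same order as the fibroblast markers, 18 of which had at least 100 counts with a median ratio of 2.75 and WT replicate 1 highest in 18. Colgalt1, a collagen galactosyltransferase, measured 225, 112, 130 and 122 CPM and lacked the low value in library A. The 3 members below, Foxf1, Sfrp1 and Mmp15, were instead highest in library A. Foxf1 measured 29.3, 92.6, 107 and 68.0 CPM, Sfrp1 30.0, 47.8, 76.7 and 47.7 CPM, and Mmp15 1.12, 1.57, 4.37 and 1.05 CPM. The part of stromal RNA in these values was not tested, and without the mesenchyme, immune and endothelial lists the median of the remaining 733 members was 0.40.

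The 15 macrophage and immune members had a median of 0.67, with 6 departing above and 1 below. The macrophage marker list was highest in library B and lowest in library A. Plcg2, a phospholipase of immune receptor signalling, measured 140, 91.1, 73.0 and 114 CPM, and Irf8, a transcription factor of myeloid cells, 83.0, 44.2, 44.9 and 70.7 CPM. Msr1, the macrophage scavenger receptor, measured 3.09, 8.99, 0.301 and 9.70 CPM and was not highest in WT replicate 1. Lpl, lipoprotein lipase, departed above at 40.4, 12.1, 0.955 and 11.2 CPM. The list thus held members with and without the low value in library A. Of 5 endothelial and vascular members, all were highest in WT replicate 1, with a median of 1.73: Vegfc, a lymphatic growth factor, measured 24.3, 9.04, 0.352 and 7.46 CPM. The 6 endothelial markers of the other chromosomes summed to 39.7, 26.9, 19.04 and 27.6 CPM. Egfl7 made up most of the WT replicate 1 sum at 25.9 CPM, while Tek was lowest there at 1.80, 4.34, 5.53 and 6.22 CPM, and Pecam1 measured 8.30, 10.4, 5.63 and 7.36 CPM. Their part in these values was not tested.

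By the rule for single genes, 494 members had a mean CPM of at least 5, an established symbol and other libraries within 1 log2, and of these 24 departed above and 13 below. Those furthest above included Plekha2, Slc9a5, Hgsnat, Carmil2, Plvap, Mt1, Pla2g15, Hapln4 and Klf2. Slc9a5, a sodium/proton exchanger, measured 29.0, 6.46, 4.92 and 5.77 CPM. Hgsnat and Pla2g15, both lysosomal enzymes, measured 59.5, 16.5, 14.1 and 15.8 CPM and 63.5, 18.4, 13.6 and 24.6 CPM. Klf2, a transcription factor of endothelial and naive pluripotent cells, measured 57.7, 13.0, 19.9 and 20.2 CPM, and Plvap, a component of endothelial diaphragms, 23.0, 5.00, 7.99 and 6.22 CPM. The choice of genes required the other 3 libraries to be within 1 log2. Library A was the lowest of them for Plekha2, Slc9a5, Hgsnat, Pla2g15 and Hapln4, and not for Carmil2, Plvap, Mt1 and Klf2.

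**Figure D5:**
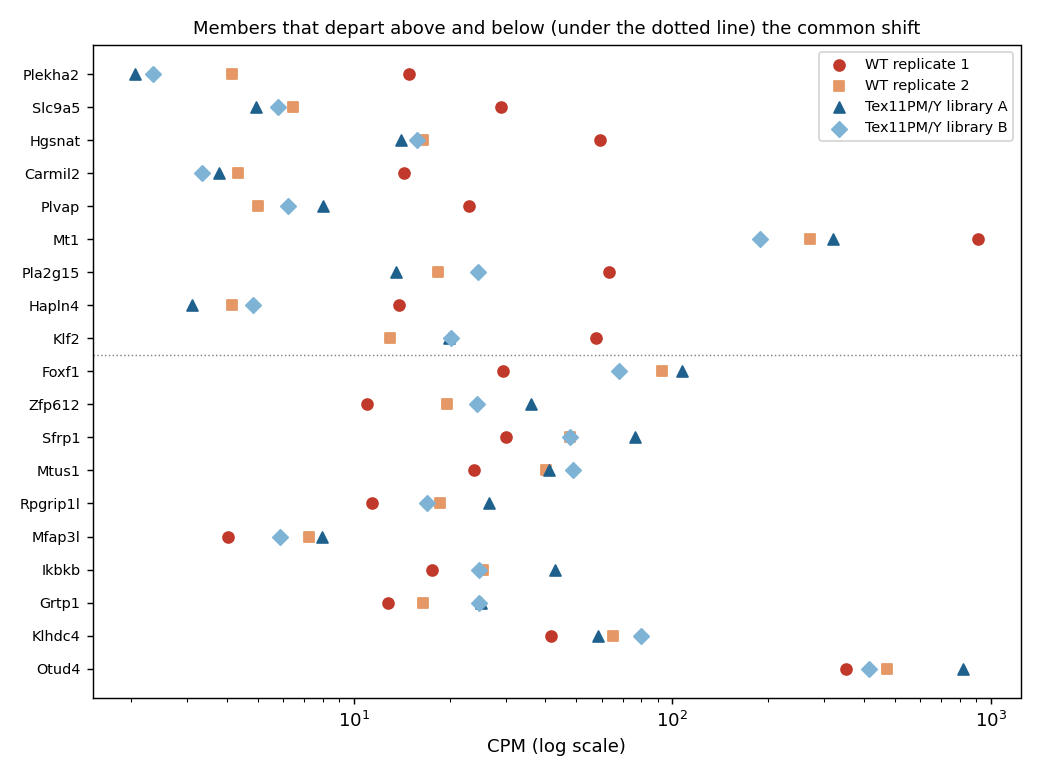
CPM on a log axis in the 4 libraries for members far above and the 10 furthest below the common shift by the rule for single genes. WT replicate 1 lies to the right of the other 3 in the genes above the dotted line and to the left in the 10 below it, and Mt1 is at 915 CPM there against 189 to 320 CPM.

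One local group above was the metallothionein pair, whose promoters are shown above. Mt1 measured 915, 272, 320 and 189 CPM, a ratio of 1.85, and Mt2 9.37, 1.21, 1.61 and 1.49 CPM, a ratio of 2.63. Mt2 overlaps Gm45774, listed on the opposite strand, and since the library kit is not stated to keep strand, reads of the pair cannot be told apart. Bbs2, a ciliary gene on one side, was near the common shift at 34.3, 19.03, 26.9 and 22.7 CPM, and Nup93, a nuclear pore subunit on the other side, had a ratio of 0.30 at 345, 274, 270 and 298 CPM. The departure was thus that of the metallothionein genes and not of the stretch around them. Carmil2 also departed above at 14.4, 4.34, 3.77 and 3.33 CPM beside Acd, a telomere protein gene that overlaps it on the other strand, at 126, 47.8, 34.9 and 49.6 CPM. Another run of departing neighbours, picked out by its values, held B3gnt9, Tradd, Fbxl8, Hsf4 and Nol3, with ratios of 1.67, 1.57, 1.75, 1.45 and 1.66. Hsf4 had only 63, 31, 18 and 26 counts. B3gnt9 was not steady in the other libraries, at 8.92, 3.84, 1.11 and 4.68 CPM.

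Among the members that pass the same rule of level, symbol and steadiness, the 10 furthest below were Foxf1, Zfp612, Sfrp1, Mtus1, Rpgrip1l, Mfap3l, Ikbkb, Grtp1, Klhdc4 and Otud4, and each was lowest in WT replicate 1. Sfrp1, a secreted inhibitor of Wnt ligands, measured 30.0, 47.8, 76.7 and 47.7 CPM. Ikbkb, a kinase that activates NF-kappaB, measured 17.7, 25.5, 42.9 and 24.8 CPM, and Otud4, a deubiquitinase, 350, 472, 820 and 415 CPM. Library A was highest in each of the 10 except Mtus1 and Klhdc4, where library B was, and in Grtp1 it was only just above library B. Mtus1, a microtubule-associated protein, measured 23.9, 40.1, 41.2 and 48.9 CPM, with the other 3 libraries nearly level.

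Foxf1, a forkhead transcription factor of mesenchyme, was the furthest below among the members that pass the rule for single genes, at 29.3, 92.6, 107 and 68.0 CPM, a ratio of -1.58. It lies in a cluster of forkhead genes. Fendrr, transcribed away from Foxf1 on the opposite strand, measured 1.23, 6.87, 19.6 and 7.16 CPM, a ratio of -2.90. Foxc2, the next forkhead gene, went the other way at 104, 48.9, 21.5 and 42.8 CPM, a ratio of 1.54, and Foxl1 measured 2.86, 5.76, 2.66 and 5.37 CPM. Mthfsd, which lies between Foxf1 and Foxc2, was close to the common shift at 0.64. Neighbouring genes of one cluster therefore departed in opposite directions. Fendrr, Foxc2, Foxl1 and Mthfsd are shown because their values had been looked at, outside the rule for single genes.

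The member furthest from the shift in either direction was Dpep3, a membrane dipeptidase of the testis, likewise picked out by its values. It had 1 count in WT replicate 1, or 0.0561 CPM, against 5.91, 10.5 and 25.3 CPM, which is 0.402% of the pooled level of the other 3 (exact 95% interval 0.0102% to 2.25%, counting error only). Its neighbours did not share this: Slc12a4, a potassium-chloride cotransporter, measured 105, 49.8, 47.2 and 44.3 CPM, and Ddx28, a mitochondrial helicase, 9.03, 5.96, 7.89 and 6.72 CPM.

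The comparison that the design allows to be tested is Tex11PM/Y against WT, with 2 libraries each. By edgeR's quasi-likelihood test over 17262 genes with Benjamini-Hochberg adjustment, 0 genes (0%) passed an adjusted p of 0.05, and all 773 members were among the genes tested with 0 called. DESeq2 also called 0 members, with 5 higher and 39 lower at an unadjusted p under 0.05, against 220 higher and 555 lower over all genes tested. At an unadjusted p under 0.05 in edgeR, 3 members were higher in Tex11PM/Y and 18 lower, where the shares over all genes tested were 0.991% and 1.71%. The smallest adjusted p of a member in edgeR was 0.884.

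The members' median log2 fold change in Tex11PM/Y was -0.21, against 0.01 over all genes. It was 0.02 without WT replicate 1 and -0.43 without WT replicate 2. The negative median between genotypes thus rested on the one WT library and was not shared by the other. Pard3, a cell polarity scaffold, had the smallest p among members lower in Tex11PM/Y, with 40.6 and 28.3 CPM in WT against 14.6 and 13.9 CPM, a log2 fold change of -1.27 (SE 0.40, adjusted p = 0.884 in edgeR). In Pard3 both WT libraries were above both Tex11PM/Y libraries, as in Zfp358, a zinc finger gene, at 11 and 4.09 against 1.96 and 1.69 CPM. Plekha2, an adaptor that binds phosphoinositides, measured 14.9 and 4.14 against 2.06 and 2.34 CPM. Among those higher in Tex11PM/Y, Pde4c, a cyclic AMP phosphodiesterase, measured 59.7 and 96.7 against 108 and 209 CPM, Ushbp1 0.785 and 0.757 against 2.06 and 4.73 CPM, and D830024N08Rik 0.785 and 0.505 against 4.42 and 2.14 CPM. Without library B, which leaves library A as the lone Tex11PM/Y library, the members' median was -0.30, against -0.03 over all genes tested. In that fit Pdgfrl, Vegfc, Lpl, Tpm4 and Cdh11 had log2 fold changes of -5.98, -5.59, -4.82, -3.72 and -4.5. These genes, each lowest in library A, were chosen after their values were seen.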

How the data were processed

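Per the file headers, the authors deposited 1 count table of 55335 genes with coordinates for 4 libraries, and tables of FPKM and TPM values, which the authors computed and which served as alternatives. Per the submitters' processing notes, fastp, STAR, featureCounts, StringTie, DESeq2 and mm10 were used, with no roles given. For the gene annotation behind the counts, no release is named. Per the labels' protocols, poly(A) RNA was selected and the kit is not stated to keep strand. Depth was 19047148 to 19804951 counts per library.

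Counts were read with R 4.3.3 and scaled by TMM in edgeR 4.0.16. Log2 CPM used a prior count of 2. The genotypes were compared by edgeR's quasi-likelihood test after filterByExpr, with Benjamini-Hochberg adjustment over all genes tested, and with DESeq2 1.42.0 as an alternative. These steps were tested on simulated data. Tables were made in Python 3.11.15.

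The members and lists were chosen with earlier results of these data known. Named genes were the 10 largest departures each way among members with a mean CPM of at least 5, an established symbol and the other 3 libraries within 1 log2, the 3 members of each list and the 5 members overall with the highest mean CPM, the 3 smallest genotype p-values each way, and the genes at the count limit. Some members that this rule names are not reported here. Other named members, among them list members given as contrasts and the neighbours of named genes, were chosen after their values were seen, as were the ribosomal protein genes of other chromosomes. Alternatives were the scaling, the prior count, the deposited FPKM and TPM, the count limit, the departure limit, subsets of members and each library left out.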

Additional observations from a re-analysis of the deposited data

How the results depend on the processing

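The median shift stayed above 0 in 15 of 15 alternatives, and its excess over the other chromosomes ran from 0.35 to 0.46. The median was 0.30 by library size alone, 0.45 by DESeq2 size factors, 0.46 with TMM factors from genes outside chromosome 8, 0.22 on the log2(FPKM + 1) scale and 0.093 on the log2(TPM + 1) scale. Library size, FPKM and TPM moved the median of all other genes to -0.13, -0.12 and -0.31, so the shift is read relative to these. It was 0.38 at 20 counts or more, 0.40 outside the mesenchyme, immune and endothelial lists, 0.45 for established symbols and 0.44 for steady members, a subset chosen after seeing the data, as was the comparison with WT replicate 2 alone. Leaving out each of the other 3 libraries gave 0.43 to 0.45.

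WT replicate 1 was highest in 292 members on the TPM scale. With a library left out it had fewer libraries to exceed, and was highest in 483 to 550 members (62% to 71%). On the other chromosomes that share was 38% to 42%, against 34.7% with all 4 libraries. Departing members numbered 130, and 62 by FPKM, 225 at 20 counts or more, 66 at 500 or more, 292 past 0.58 log2, 64 among steady members and 112 to 151 with a library left out. The cause was not tested, other than that a lower count limit admits shallower genes and subsets hold fewer. The shift has no value without WT replicate 1.

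Genotype calls among members numbered 1 without the count filter (2310022B05Rik, lower in Tex11PM/Y) and 0 to 14 with a library left out, the 14 arising without library B; there the lone library is assumed to vary like the other group. Without the count filter, 50 of all 33024 genes tested were called. The calls without library B were likewise not limited to chromosome 8, so they are not read as a property of its genes. No paired analysis was possible because the Tex11PM/Y columns share one name that holds no replicate number. With 2 libraries per genotype, small differences of single members could not be detected, and members with few counts had the widest spread.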
